A study of Homo sapiens with 6 samples.

Results

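Cells build purine and pyrimidine nucleotides from ribose 5-phosphate, glutamine, glycine, aspartate and one-carbon units, or recycle them by salvage of free bases and nucleosides. The pentose phosphate pathway supplies the ribose and reduces NADP+, and phosphoribosyl pyrophosphate (PRPP) is the activated ribose that de novo synthesis and base salvage both consume. Rapidly dividing tumour cells draw on all of these routes for RNA and DNA synthesis.

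The genes described here are 45 enzymes of nucleotide synthesis, nucleotide salvage and the pentose phosphate pathway, out of 39554 genes in the deposited count table. They were taken by gene name from a list of enzymes that was drawn up with earlier results of these data known, which bears on every count of them below. All 45 were measured and passed the filter on low counts, which left 17693 genes in all; GART was listed with an alternate-scaffold copy and was matched by its Entrez gene ID. The cells were SW620, an established human colorectal cancer line, and poly(A) RNA was taken 72 h after small interfering RNA (siRNA) transfection. The comparison was between 3 libraries of cells given a control siRNA (siNC; wild type in the genotype field) and 3 libraries of cells given an siRNA against SOWAHA (siSOWAHA; SOWAHA knockdown in that field). A separate treatment field gives knock-down for every sample, siNC included; groups were taken from the titles, with which the genotype field matches. The labels state neither how many different siRNAs were used nor whether replicates were separate cultures. The p-values thus rest on a spread among libraries that could be technical.

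The targeted transcript was measured first. Its level, in CPM (read counts scaled to library size), was 32.3, 39.4 and 33.8 for SOWAHA in siNC and 7.52, 6.85 and 8.96 in siSOWAHA libraries, a log2 fold change of -2.18 (SE 0.105; edgeR adjusted p = 3.68e-09). Total counts per library were 49937395 to 59474396, and the 45 enzymes took 0.684% to 0.719% of them. Apart from ADSS1 and RBKS, no enzyme had fewer than 1861 counts in a library. Of 12 listed colorectal epithelial markers, 8 were at 1 CPM or above, with summed levels of 9523 to 9828 CPM in siNC and 8883 to 8993 CPM in siSOWAHA libraries, and CDX1 was at 0. EPCAM stood at 398 CPM in both groups, while CDH17 (log2 fold change -0.59), CDX2 (-0.44), KRT19 (-0.30), CDH1 (-0.13) and KRT8 (-0.12) fell (edgeR adjusted p = 0.0408 or lower). Summed fibroblast markers were 10.5 to 12.5 CPM in siNC and 8.10 to 10.2 CPM in siSOWAHA libraries, leukocyte markers 6.16 to 6.91 and 5.41 to 7.12 CPM, and endothelial markers 1.70 to 2.73 and 1.61 to 2.88 CPM, with PTPRC, CD3E and CDH5 at 0.

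Small changes were spread over most branches of the network, and increases were more frequent than decreases. In the siSOWAHA libraries 14 of the 45 enzymes rose, 6 fell and 25 did not pass the test (edgeR, adjusted p under 0.05 over all 17693 genes tested). These are 31.1% and 13.3% of the enzymes, against 9.12% higher and 7.77% lower among all genes tested, where 16.9% were called in either direction. Most of the enzymes are well expressed, and well expressed genes are called more often: among the 43 enzymes with a mean of at least 20 CPM, 32.6% rose and 14.0% fell, against 16.5% and 11.5% of the 8314 genes at that level (28.0% in either direction). The median log2 fold change of the 45 was 0.07, against -0.01 over all genes tested and 0.02 over those of at least 20 CPM.

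The changes were modest in size. Log2 fold changes of the enzymes ran from -0.36 to 0.27, with standard errors of 0.030 to 0.059 for those of at least 20 CPM. Only TKT and UCKL1 differed by 1.2-fold or more, and 19 enzymes by 1.1-fold or more. The median fold of the enzymes that rose was 1.11, and of those that fell 0.866. In 28 of the 45 no siSOWAHA library overlapped an siNC library, 20 with the siSOWAHA libraries above and 8 below. That is 62.2%, where 33.0% of all genes tested were parted in this way, and 65.1% of the enzymes of at least 20 CPM, where 45.2% of such genes were. In bulk RNA, a lower share of cells expressing a gene and less RNA per cell cannot be told apart. A call was kept in all 6 fits that each left out 1 library for 8 of the 20 enzymes: PRPS1, DTYMK, HPRT1, ADK, UCKL1, H6PD, RPE and TKT. Against a fold of 1.1 as the null (edgeR glmTreat), only TKT and UCKL1 passed.

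**Figure D1:**
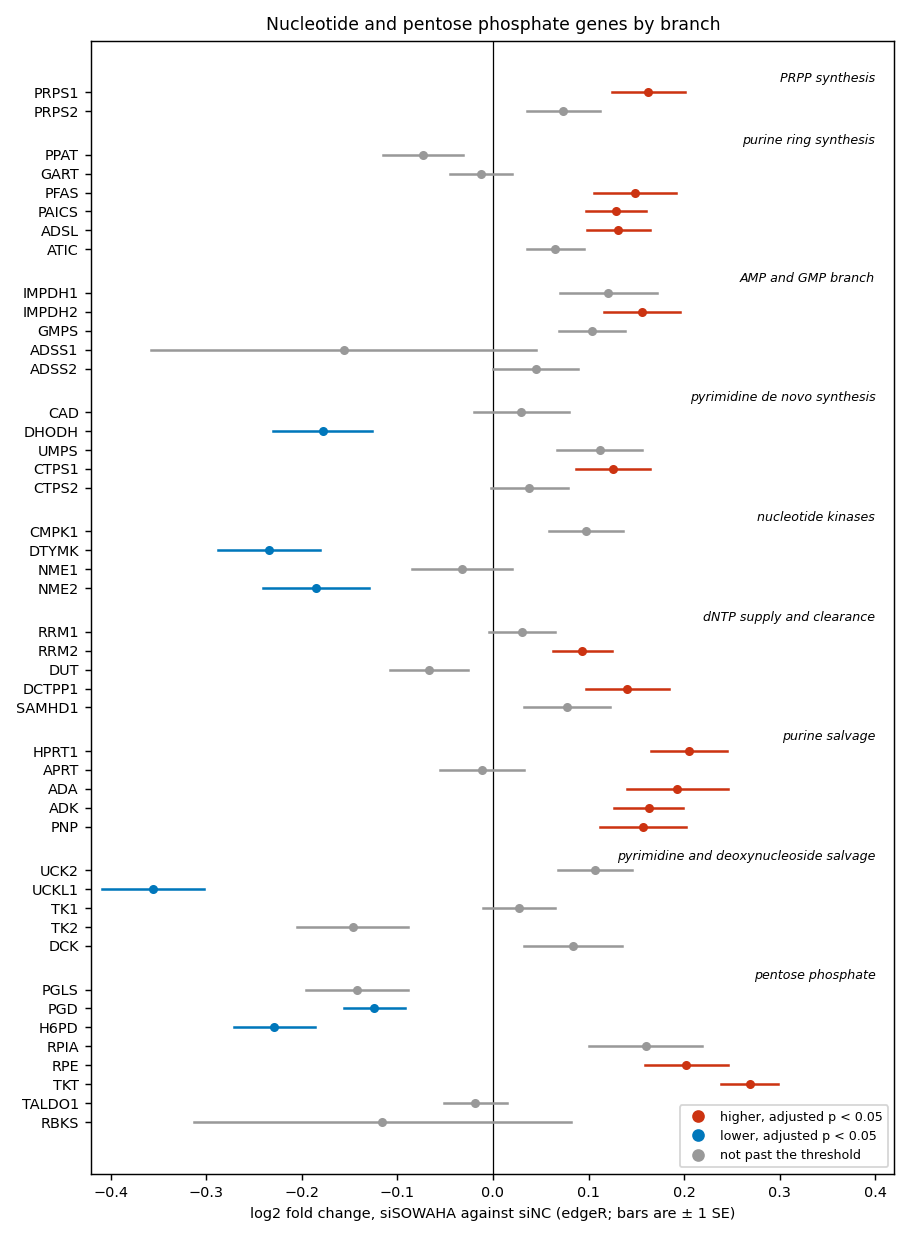
Log2 fold change of each of the 45 enzymes, siSOWAHA against siNC (horizontal axis; edgeR, bars are ± 1 SE), ordered by branch, with 3 libraries per group. Red marks the 14 enzymes that rose, blue the 6 that fell and grey the 25 that did not pass the adjusted threshold of 0.05; TKT lies farthest to the right at 0.27 and UCKL1 farthest to the left at -0.36.

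The mean of the 45 log2 CPM values, taken relative to the siNC mean, was 0.020, 0.055 and 0.017 in siSOWAHA libraries 1, 2 and 3, and ran from -0.022 to 0.014 in the siNC libraries. The purine salvage mean was the farthest from zero in each siSOWAHA library, at 0.11, 0.18 and 0.13, except that the nucleotide kinase mean of library 3 was at -0.15. The nucleotide kinase mean includes NME1 and NME2, which share exons with a separate read-through entry, NME1-NME2. In siSOWAHA library 3 that entry held 24.6% of the counts of the 3 entries, against 10.1% to 10.8% in siNC libraries. Means of the pentose phosphate enzymes were 0.010, 0.013 and -0.014 in the siSOWAHA libraries, against -0.073, 0.043 and 0.030 in the siNC libraries. This branch as a whole thus stayed within its siNC spread while its members moved apart. Each enzyme counts alike in the mean, also RBKS with a siNC mean of 3.45 CPM.

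**Figure D2:**
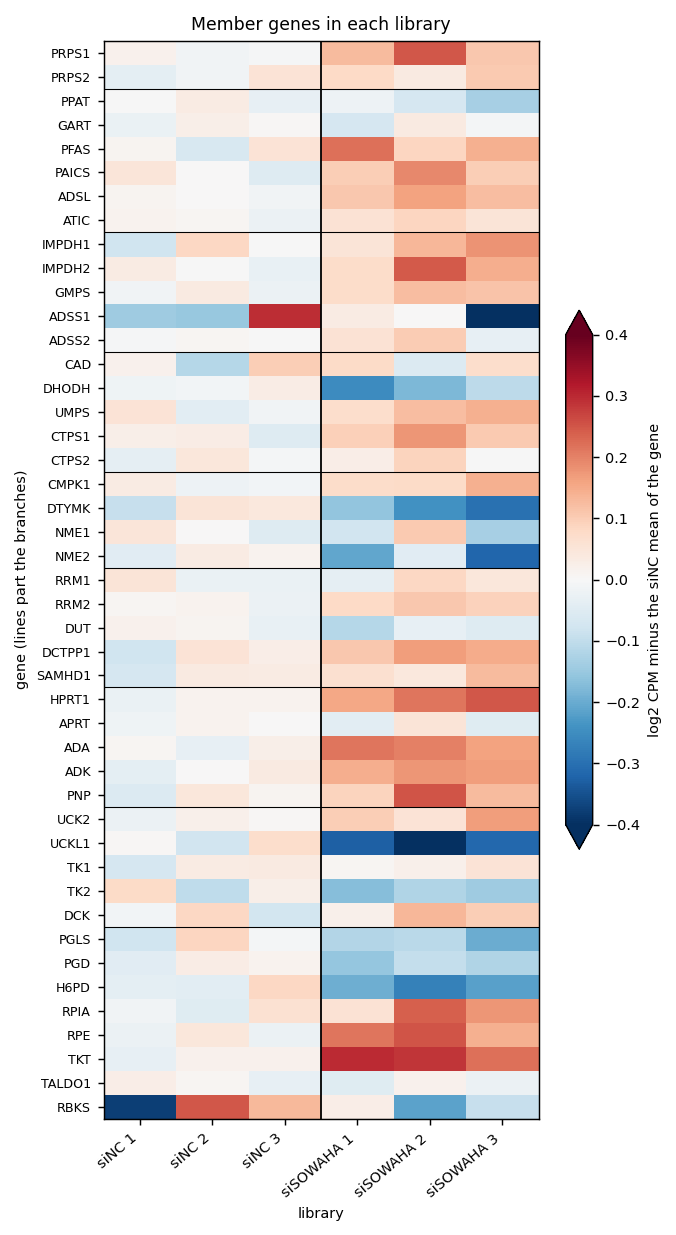
Log2 CPM of each enzyme in each library minus the siNC mean of that enzyme (colour scale, limited to ± 0.4), with the 3 siNC libraries on the left and the 3 siSOWAHA libraries on the right. TKT, RPE, HPRT1 and ADK are red and UCKL1, H6PD and DTYMK blue in all 3 siSOWAHA libraries; the strong colours of ADSS1 and RBKS belong to enzymes with means below 4 CPM.

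PRPP synthetases make PRPP from ribose 5-phosphate and ATP. PRPS1 rose: it had 203, 199 and 200.5 CPM in siNC and 219, 239 and 217 CPM in siSOWAHA libraries (log2 fold change 0.16, SE 0.0384; edgeR adjusted p = 0.00853). All 3 siSOWAHA libraries were above all 3 siNC libraries. Its isozyme PRPS2 had 135 ± 4.57 CPM in siNC and 142 ± 3.42 CPM in siSOWAHA libraries (SD, n = 3 each), with overlapping groups and an edgeR adjusted p of 0.227.

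Of the 6 enzymes that assemble the purine ring on PRPP up to inosine monophosphate (IMP), 3 rose and none fell. PFAS, which uses glutamine to make formylglycinamidine ribonucleotide, had 140.3, 133 and 145 CPM in siNC and 162, 148 and 154 CPM in siSOWAHA libraries (log2 fold change 0.15, SE 0.0430; edgeR adjusted p = 0.0268). PAICS, which carries out the later carboxylase and succinocarboxamide synthetase steps, was the most abundant of the 45 by counts. It had 789, 765 and 738 CPM in siNC and 817, 872 and 817 CPM in siSOWAHA libraries (0.13, SE 0.0316, edgeR adjusted p = 0.0106). ADSL, the lyase that acts both here and in the last step to AMP, had 185, 183 and 182 CPM in siNC and 198, 205 and 199.6 CPM in siSOWAHA libraries (0.13, SE 0.0325; edgeR adjusted p = 0.0113). In each of these 3 genes the groups did not overlap.

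The other 3 enzymes of the ring did not pass. PPAT, the amidotransferase of the committed step, had 107, 109.8 and 105 CPM in siNC and 106, 102 and 97.9 CPM in siSOWAHA libraries (-0.07, edgeR adjusted p = 0.273). GART, a multifunctional enzyme, was at 290.1 ± 4.96 and 288 ± 10.1 CPM (SD, n = 3 each; edgeR adjusted p = 0.866). ATIC, which completes IMP, was at 266 ± 3.86 and 278 ± 3.63 CPM (edgeR adjusted p = 0.16), with its groups apart. The calls of this branch were of limited stability: PFAS was lost without siNC replicate 1 or 2 or siSOWAHA replicate 1 or 3 (edgeR adjusted p = 0.0756 to 0.123), PAICS without siNC replicate 3 (0.07) or siSOWAHA replicate 2 (0.0506), and ADSL without siNC replicate 3 (0.0524).

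PPAT and PAICS lie head to head on chromosome 4 (GRCh38, PPAT 56393362 to 56435615 on the minus strand, PAICS 56410507 to 56464578 on the plus strand in the authors' deposited table) and in RefSeq the PPAT start and 1 of the 3 PAICS starts face away from each other 137 bases apart. The promoter of that PAICS start is shown because the 2 genes gave different values: 236 of its 300 bases are also in the PPAT promoter window. It is the plus strand of RefSeq GRCh38.p14 chr4:56435502-56435801, from 250 bases before the PAICS start to 50 bases after it. Capitals mark a CACGTG E-box, the site bound by MYC with MAX, and a match to the core of the antioxidant response element on the other strand.
PAICS promoter: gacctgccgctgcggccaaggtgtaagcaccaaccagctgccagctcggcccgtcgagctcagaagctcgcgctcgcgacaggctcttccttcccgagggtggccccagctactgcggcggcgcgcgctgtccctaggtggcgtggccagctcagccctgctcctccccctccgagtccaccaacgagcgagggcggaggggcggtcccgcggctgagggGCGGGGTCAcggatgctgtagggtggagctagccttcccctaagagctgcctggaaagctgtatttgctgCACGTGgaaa
Within a library the FPKM ratio of PPAT to PAICS was lower in siSOWAHA than in siNC libraries, at log2 ratios of -1.89, -2.03 and -2.002 against -1.82, -1.74 and -1.75. The ratio went from 0.293 to 0.254, a log2 difference of -0.20, with no overlap between groups. An exact two-sided permutation test, which with 3 libraries a group cannot go below 0.1, gave p = 0.1, and 0.2 after Benjamini-Hochberg adjustment over 10 enzyme pairs. The deposited PPAT and PAICS spans overlap on opposite strands, and the strand setting of the counting is not given in the sources used here, so reads of the overlap may have been shared between them.

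From IMP, one branch leads to GMP and another to AMP. IMPDH2, the main isozyme of the rate-limiting step to GMP in proliferating cells, rose from 245, 239 and 235 CPM in siNC to 253, 284 and 265 CPM in siSOWAHA libraries (log2 fold change 0.16, SE 0.0397; edgeR adjusted p = 0.0133). Its call was lost without siNC replicate 3 (0.072) or siSOWAHA replicate 2 (0.0618), the library with the highest value. GMPS, which aminates the product to GMP, lay just outside the threshold with 165 ± 3.54 CPM in siNC and 178 ± 3.43 CPM in siSOWAHA libraries (SD, n = 3 each; edgeR adjusted p = 0.0517). IMPDH1 (log2 fold change 0.12, edgeR adjusted p = 0.126) and ADSS2, the adenylosuccinate synthetase of most tissues (0.04, 0.583), did not pass. ADSS1, the muscle isozyme, was near the lower end of the enzymes at 3.77 ± 0.697 and 3.39 ± 0.680 CPM, and its direction changed with the library left out.

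Of the 5 enzymes of de novo pyrimidine synthesis, 1 rose and 1 fell. Among genes of at least 20 CPM, 16.5% rose and 11.5% fell, so 1 of 5 in each direction is near the background. CTPS1, the glutamine-dependent synthetase that turns UTP into CTP, rose from 145, 145 and 137 CPM in siNC to 152, 161 and 153 CPM in siSOWAHA libraries (log2 fold change 0.13, SE 0.0383; edgeR adjusted p = 0.0348). DHODH, the mitochondrial dehydrogenase that makes orotate and passes electrons to ubiquinone, fell from 49.3, 49.5 and 50.9 CPM to 41.9, 44.0 and 46.4 CPM (-0.18, SE 0.0518; edgeR adjusted p = 0.0277). The groups did not overlap in either gene. Each call was kept in only 1 of the 6 fits without a library: CTPS1 without siSOWAHA replicate 1 and DHODH without siSOWAHA replicate 3, with edgeR adjusted p of 0.0518 to 0.162 and 0.063 to 0.102 in the other 5 fits.

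The remaining pyrimidine enzymes did not pass. CAD, which holds the opening activities of the pathway, had 231, 210.5 and 244 CPM in siNC and 240.4, 219.7 and 239 CPM in siSOWAHA libraries, with overlapping groups (edgeR adjusted p = 0.769). UMPS, which forms UMP, had 68.0 ± 2.39 and 73.5 ± 1.905 CPM (SD, n = 3 each; edgeR adjusted p = 0.105), with its groups apart. CTPS2 had 109 ± 3.14 and 112 ± 3.58 CPM (edgeR adjusted p = 0.608).

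Nucleotide kinases turn nucleoside monophosphates into di- and triphosphates, and here 2 of 4 fell and none rose. DTYMK, the thymidylate kinase that makes dTDP, fell from 53.9, 59.6 and 59.2 CPM in siNC to 51.5, 48.6 and 46.8 CPM in siSOWAHA libraries (log2 fold change -0.23, SE 0.0534; edgeR adjusted p = 0.00695). Every siSOWAHA library was below every siNC library. NME2, a nucleoside diphosphate kinase, had 207, 218 and 216 CPM in siNC and 185, 207 and 171 CPM in siSOWAHA libraries (-0.19, SE 0.0558; edgeR adjusted p = 0.0401). It was the only one of the 20 called enzymes whose groups overlapped. NME1 had 187 ± 6.45 and 183 ± 16.0 CPM (SD, n = 3 each; edgeR adjusted p = 0.761), and CMPK1, the UMP and CMP kinase, 110.0 ± 2.23 and 118 ± 3.27 CPM (edgeR adjusted p = 0.105), with the CMPK1 groups apart.

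NME1 and NME2 are neighbours on chromosome 17 (GRCh38, 51153559 to 51162168 and 51165536 to 51171744, plus strand), and the deposited table has a separate entry, NME1-NME2, for the read-through transcript that joins them. That entry had 48.6, 45.3 and 44.6 CPM in siNC and 71.2, 61.3 and 111 CPM in siSOWAHA libraries, or 10.8%, 10.1% and 10.1% against 16.4%, 13.1% and 24.6% of the counts of the 3 entries. The groups did not overlap, but siSOWAHA replicate 3 stood well above the other two and the entry did not pass (log2 fold change 0.82, SE 0.265; edgeR adjusted p = 0.137). The 3 entries share exons, so how their reads were split depends on the counting, which is not given in the sources used here. Summed, they had 448, 450.4 and 440.4 CPM in siNC and 433, 469 and 453 CPM in siSOWAHA libraries, a log2 fold change of 0.02 (SE 0.031; edgeR adjusted p = 0.79). Summing the entries was an alternative chosen after seeing the data. NME2 was then not tested on its own, so its call could not be kept, and 14 enzymes rose and 5 fell. With the entries kept separate, the NME2 call was lost on leaving out any library but siSOWAHA replicate 2 (edgeR adjusted p = 0.0553 to 0.169).

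**Figure D3:**
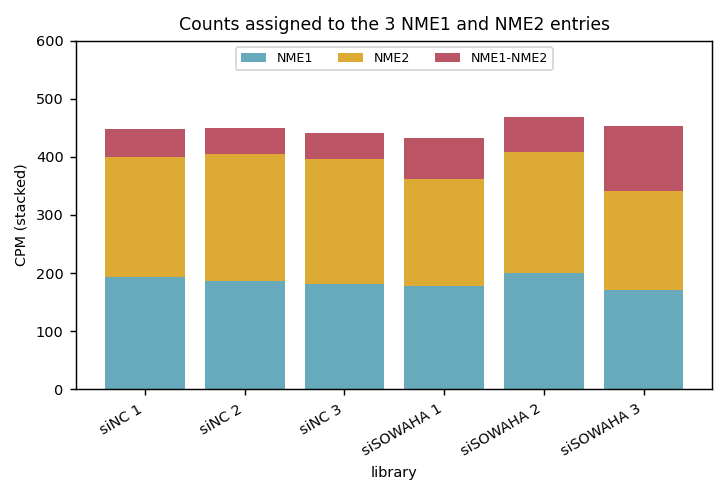
CPM of the NME1, NME2 and NME1-NME2 entries, stacked, in each of the 6 libraries. The summed height lies between 433 and 469 CPM in all libraries, while the NME1-NME2 segment is 44.6 to 48.6 CPM in siNC and 61.3 to 111 CPM in siSOWAHA libraries.

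Deoxynucleotides are made by ribonucleotide reductase and kept in balance by enzymes that hydrolyse them; 2 of these 5 genes rose and none fell. DCTPP1, a pyrophosphatase that clears dCTP and modified deoxycytidine triphosphates, had 96.0, 105 and 103 CPM in siNC and 109, 114 and 113 CPM in siSOWAHA libraries (log2 fold change 0.14, SE 0.0433; edgeR adjusted p = 0.0365). RRM2, the small reductase subunit that is made in S phase, had 217, 218 and 212 CPM in siNC and 228, 232 and 229.8 CPM in siSOWAHA libraries (0.09, SE 0.0309; edgeR adjusted p = 0.0496). Both genes had all siSOWAHA libraries above all siNC libraries. The RRM2 call was the closest to the threshold and was lost without any 1 library (edgeR adjusted p = 0.0567 to 0.171), and that of DCTPP1 without siNC replicate 1 or 3 or siSOWAHA replicate 2 or 3 (0.0722 to 0.166).

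The large reductase subunit RRM1 had 359 ± 11.1 CPM in siNC and 367 ± 15.2 CPM in siSOWAHA libraries (SD, n = 3 each; edgeR adjusted p = 0.639). DUT, which removes dUTP, had 100.5 ± 1.75 and 95.9 ± 2.82 CPM (edgeR adjusted p = 0.313), with the siSOWAHA libraries all lower. SAMHD1, a deoxynucleoside triphosphate hydrolase, had 86.8 ± 3.52 and 91.6 ± 2.77 CPM (edgeR adjusted p = 0.284), with the siSOWAHA libraries all higher. None of these 3 passed the test.

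Purine salvage was the branch in which the largest share of enzymes rose: 4 of 5, with a median log2 fold change of 0.16. HPRT1, which returns hypoxanthine and guanine to nucleotides with PRPP, had 98.8, 102 and 102 CPM in siNC and 112, 117 and 119.7 CPM in siSOWAHA libraries (0.21, SE 0.0399; edgeR adjusted p = 0.00221). ADK, which phosphorylates adenosine, had 134, 138 and 141 CPM in siNC and 152, 156 and 155 CPM in siSOWAHA libraries (0.16, SE 0.0357; edgeR adjusted p = 0.00522). Both kept their calls without any 1 library. ADA, which deaminates adenosine and deoxyadenosine, had 36.8, 35.8 and 37.2 CPM in siNC and 42.5, 42.1 and 41.0 CPM in siSOWAHA libraries (0.19, SE 0.0527; edgeR adjusted p = 0.0202). PNP, which splits purine nucleosides into base and ribose 1-phosphate, had 127, 136 and 133 CPM in siNC and 141, 158 and 144 CPM in siSOWAHA libraries (0.16, SE 0.0448; edgeR adjusted p = 0.025).

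All 4 genes had siSOWAHA libraries that were entirely above the siNC libraries. APRT, the adenine counterpart of HPRT1, had 73.6, 75.3 and 74.6 CPM in siNC and 72.4, 77.2 and 72.0 CPM in siSOWAHA libraries, with overlapping groups (-0.01, edgeR adjusted p = 0.907). The ADA call was lost without siNC replicate 1 or 2 or siSOWAHA replicate 1 or 2 (edgeR adjusted p = 0.0504 to 0.0726), and that of PNP without siNC replicate 1 or 3 or siSOWAHA replicate 2 or 3 (0.0531 to 0.127).

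In pyrimidine and deoxynucleoside salvage 1 of 5 enzymes fell and none rose. UCKL1, a member of the uridine-cytidine kinase family, had the largest decrease among the 45: 55.9, 52.9 and 58.6 CPM in siNC and 44.5, 41.5 and 44.8 CPM in siSOWAHA libraries (log2 fold change -0.36, SE 0.0533; edgeR adjusted p = 0.000275). The groups were well apart, and the call was kept without any 1 library. Its promoter is shown for that reason, and for its tandem repeat. It is the minus strand of RefSeq GRCh38.p14 chr20:63956367-63956666, with a CACGTG E-box in capitals 233 bases before the start, followed from base 60 of the window by 4.97 copies of a 31-base unit, over 154 bases.
UCKL1 promoter: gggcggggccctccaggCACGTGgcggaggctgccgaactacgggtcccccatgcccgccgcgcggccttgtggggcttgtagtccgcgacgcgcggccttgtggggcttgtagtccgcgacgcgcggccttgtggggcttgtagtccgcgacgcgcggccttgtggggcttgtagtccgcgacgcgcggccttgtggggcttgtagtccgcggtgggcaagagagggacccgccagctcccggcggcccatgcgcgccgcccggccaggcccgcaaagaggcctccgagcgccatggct
UCKL1-AS1, on the opposite strand, and MIR647 overlap UCKL1 in the deposited table; each averaged at most 164 counts per library, while UCKL1 had at least 2223 counts.

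UCK2, the uridine-cytidine kinase with high activity in tumour cells, had 127, 131 and 129.96 CPM in siNC and 139, 134 and 145 CPM in siSOWAHA libraries. All siSOWAHA libraries were above all siNC libraries, but UCK2 did not pass (0.11, SE 0.0388; edgeR adjusted p = 0.0726). TK1, the cytosolic thymidine kinase of S phase, had 161 ± 6.38 and 164 ± 2.78 CPM (SD, n = 3 each; edgeR adjusted p = 0.706). Its mitochondrial counterpart TK2 had 42.0 ± 2.61 and 37.9 ± 0.672 CPM (edgeR adjusted p = 0.102), with all siSOWAHA libraries lower. DCK, which phosphorylates deoxycytidine and purine deoxynucleosides, had 53.9 ± 2.91 and 57.1 ± 2.26 CPM (edgeR adjusted p = 0.311).

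The pentose phosphate enzymes split by the arm they serve. In the oxidative arm, which yields NADPH and ribulose 5-phosphate, PGD and H6PD fell and none of the 3 listed enzymes rose. PGD, the cytosolic phosphogluconate dehydrogenase, had 270.4, 285 and 282 CPM in siNC and 250.5, 261 and 257 CPM in siSOWAHA libraries (log2 fold change -0.12, SE 0.0322; edgeR adjusted p = 0.0148). H6PD, the endoplasmic reticulum enzyme that joins the dehydrogenase and lactonase steps, had 131, 131 and 142 CPM in siNC and 117, 111 and 116 CPM in siSOWAHA libraries (-0.23, SE 0.0424; edgeR adjusted p = 0.00154). PGLS, the cytosolic lactonase, had 49.0, 54.9 and 51.5 CPM in siNC and 47.7, 48.0 and 45.1 CPM in siSOWAHA libraries (-0.14, SE 0.0535; edgeR adjusted p = 0.0847). In all 3 genes each siSOWAHA library was below each siNC library. The H6PD call was kept without any 1 library, and the PGD call was lost without siNC replicate 2 (0.0711) or 3 (0.0668) or siSOWAHA replicate 3 (0.0586).

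In the non-oxidative arm, which interconverts sugar phosphates and can make ribose 5-phosphate from glycolytic intermediates, 2 of 4 enzymes rose and none fell. TKT, the transketolase, had the smallest adjusted p and the largest increase of the 45: 393, 407 and 406 CPM in siNC and 495, 489.7 and 469 CPM in siSOWAHA libraries. The lowest siSOWAHA library was well above the highest siNC library (0.27, SE 0.0296; edgeR adjusted p = 1.55e-05). RPE, the epimerase that turns ribulose into xylulose 5-phosphate, had 84.2, 88.3 and 84.1 CPM in siNC and 99.2, 102 and 94.3 CPM in siSOWAHA libraries (0.20, SE 0.0439; edgeR adjusted p = 0.00491). Both calls were kept without any 1 library.

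The TKT promoter is shown because the gene had the largest increase. It is the minus strand of RefSeq GRCh38.p14 chr3:53255973-53256272; it held no match to any of the motifs searched, so no letters are in capitals.
TKT promoter: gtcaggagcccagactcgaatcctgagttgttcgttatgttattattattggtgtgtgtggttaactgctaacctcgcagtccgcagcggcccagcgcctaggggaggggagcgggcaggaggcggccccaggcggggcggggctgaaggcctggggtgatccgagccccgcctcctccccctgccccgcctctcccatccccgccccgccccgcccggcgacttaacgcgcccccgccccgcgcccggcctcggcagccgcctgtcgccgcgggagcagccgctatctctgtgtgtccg
RPIA, the isomerase that forms ribose 5-phosphate, had 39.1, 38.1 and 41.2 CPM in siNC and 41.1, 46.6 and 44.6 CPM in siSOWAHA libraries (0.16, SE 0.0588; edgeR adjusted p = 0.0781), with overlapping groups. TALDO1, the transaldolase that works beside transketolase, had 233 ± 4.85 and 229.9 ± 5.36 CPM (SD, n = 3 each; edgeR adjusted p = 0.784). RBKS, which phosphorylates free ribose, was the least expressed of the 45 by counts, at 3.45 ± 0.743 and 3.19 ± 0.268 CPM (edgeR adjusted p = 0.772).

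Enzymes that share a reaction or a neighbouring step, and PPAT and PAICS as neighbouring genes, were compared as ratios within each library. The ratios were of the authors' FPKM values (fragments scaled to transcript length and library size). Taking them within a library takes scaling between libraries out of the comparison. Of 10 pairs, 5 had groups that did not overlap, each at an exact two-sided permutation p of 0.1, the smallest possible, and 0.2 after Benjamini-Hochberg adjustment over the 10. Among single genes of at least 20 CPM, 45.2% had groups that did not overlap, so 5 of 10 is near that share. The share among ratios of other genes was not computed. The widest shift was in UCK2 over UCKL1, with log2 ratios of 1.51, 1.64 and 1.47 in siNC and 1.97, 2.02 and 2.02 in siSOWAHA libraries, or ratios of 2.91 and 4.01. TK1 over TK2 went from 13.3 to 15.0, NME1 over NME2 from 0.792 to 0.881 and CTPS1 over CTPS2 from 1.397 to 1.485, and the last of the 5 was PPAT over PAICS, given above. The NME1 over NME2 ratio depends on how reads were split between these entries and NME1-NME2.

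The groups overlapped in the other 5 ratios. PGD over H6PD was 12.3 in siNC and 13.2 in siSOWAHA libraries (exact permutation p = 0.2), although both genes had fallen. IMPDH1 over IMPDH2 was 0.180 and 0.176 (exact permutation p = 0.8). PRPS1 over PRPS2 differed by 0.09 on the log2 scale (exact permutation p = 0.4), RRM1 over RRM2 by -0.06 (0.2) and ADSS1 over ADSS2 by -0.21 (0.6).

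**Figure D4:**
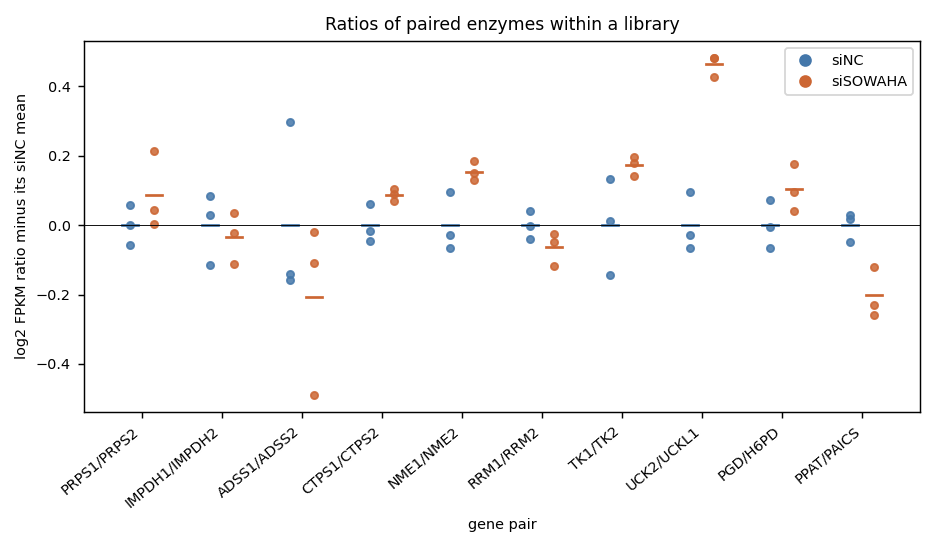
Log2 ratio of the FPKM values of 2 enzymes in each library minus the siNC mean of that ratio, for 10 pairs; points are libraries, short lines group means, with siNC in blue and siSOWAHA in orange (n = 3 each). The UCK2/UCKL1 points lie highest, at a mean difference of 0.46, and the PPAT/PAICS points are below siNC by 0.20.

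Levels per length differed far more between enzymes than between groups. By mean FPKM in the siNC libraries the order began with NME2 (198 ± 5.92), TALDO1 (181 ± 3.12), NME1 (157 ± 4.87) and TKT (119 ± 2.65; SD, n = 3 each). IMPDH2 (108 ± 2.00) and PGD (105 ± 3.06), next in order, did not differ beyond their spread. The lowest were ADSS1 (1.54 ± 0.293) and RBKS (1.35 ± 0.294), which overlapped, below TK2 at 6.63. In the siSOWAHA libraries TKT was at 141 ± 4.31 FPKM and PGD at 95.3 ± 1.41 FPKM, so that these 2 enzymes of one pathway stood farther apart than in siNC. Levels of NME1 and NME2 carry the uncertainty of their shared locus.

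**Figure D5:**
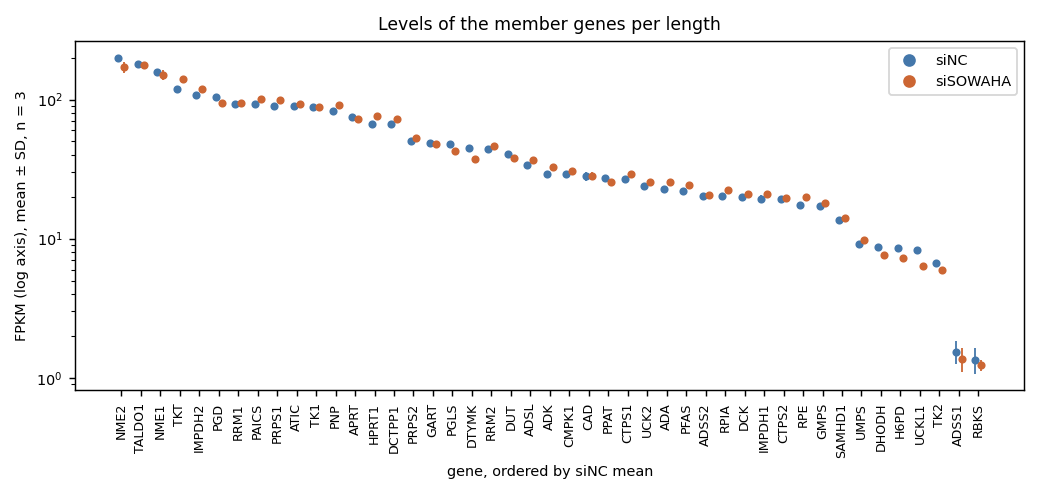
Mean FPKM of each enzyme (vertical log axis; bars are ± SD, n = 3 per group), ordered by the siNC mean, with siNC in blue and siSOWAHA in orange. Levels run from 198 FPKM for NME2 to 1.35 FPKM for RBKS in siNC, and most pairs of points lie close together beside that range.

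Promoter windows were searched for 4 kinds of motif on both strands, in 43 of the 45 genes and in 27305 genes of the RefSeq promoter table (250 bases before to 50 after each start); IMPDH2 and ADSL had no entry. The CACGTG E-box was in 8 of the 43 (18.6%), against 8.77% of all genes: ATIC, DCK, DCTPP1, DHODH, NME1, PAICS, PPAT and UCKL1. These included 2 genes that rose, 2 that fell and 4 that did not pass. The E2F motif, as TTTCCCGC or TTTGGCGC, was in 4 (9.3%; DCK, DUT, GART and PRPS2), against 2.75% of all genes, and none of the 4 was called. The antioxidant response element core TGACNNNGC was in 8 (18.6%) against 16.1%, and the NRF1 motif GCGCATGCG in 1 (2.33%; CTPS1) against 2.34%. PPAT and PAICS share their matches, as their windows overlap, and a match is a description of the letters and not a measured site. A gene was counted where any of its windows matched, with 60 windows for the 43 genes. The 27305 genes were not matched to the 43 by expression or by number of windows.

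Further genes of nucleotide metabolism, from a list of 55 of which 44 passed the filter, gave 7 that rose (15.9%) and 1 that fell (2.27%), against 9.12% and 7.77% of all genes tested, with a median log2 fold change of 0.06. Taken in either direction, the share called is near the 16.9% of all genes tested and below the 28.0% of genes of at least 20 CPM. The decrease was in GDA, the guanine deaminase that takes guanine out of the salvage pool, and it exceeded that of every enzyme above: 72.9, 77.7 and 74.6 CPM in siNC and 47.6, 47.0 and 46.6 CPM in siSOWAHA libraries (-0.67, SE 0.0433; edgeR adjusted p = 6.53e-08). Among those that rose were the adenylate kinases AK4 and AK6, uridine phosphorylase UPP1, GMP reductase GMPR2, AMP deaminase AMPD2 and the pyrimidine nucleotidase NT5C3A, by 0.16 to 0.29 on the log2 scale (edgeR adjusted p = 0.0144 or lower). UPP1 was lost without siNC replicate 1 (0.0772) or 3 (0.0624) or siSOWAHA replicate 1 (0.0602), and NT5C3A without siNC replicate 3 (0.0743) or siSOWAHA replicate 3 (0.0516).

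Genes of S phase, when deoxynucleotide demand is highest, are given beside these results. Of 20 DNA replication genes, 5 rose (25.0%) and none fell, with a median log2 fold change of 0.04. Among genes of at least 20 CPM, 28.0% were called in either direction and 16.5% were higher, so the share called is near the background. At an unadjusted p under 0.05 there were 8 of the 20, and 3613 of the 8314 genes at that level. CDC6, a licensing factor, rose from 93.0 ± 1.47 to 112 ± 1.46 CPM (SD, n = 3 each; 0.27, edgeR adjusted p = 0.000188), and MCM3, GINS2, FEN1 and CDC45 rose by 0.14 to 0.24. CDC45 was called in 1 of the 6 fits without a library, that without siSOWAHA replicate 1 (0.0878 to 0.187 in the others). The part of these genes, and of the lower epithelial markers, in the values of the enzymes was not tested.

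Named pseudogene copies in RefSeq exist for 16 of the 45 genes, PAICS and RPE among them, and reads of such copies could have been counted for either. Genes on the opposite strand overlap some of the 45 in the deposited table, among them RPE with KANSL1L and PFAS with CTC1. Counting by strand would part these reads, and whether it was used is not given in the sources used here. It would not part reads of genes that overlap on the same strand, as ADSL does with SGSM3 and IMPDH2 with QRICH1. SGSM3 averaged 2144.8 and QRICH1 4578.3 counts per library.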

How the data were processed

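RNA of 6 SW620 samples was sequenced as strand-specific paired-end poly(A) libraries, per the labels' protocols, and grouped by sample title. The submitters' processing notes name cutadapt 1.9, FastQC and the build GRCh38. The aligner, the counter, its strand setting and the annotation were not given in the sources used here. Raw counts were deposited by the authors for 39554 genes, and FPKM values beside identical counts for 24901 of them. Replicates differed by more than sampling noise (chi-square per degree of freedom 8.09 to 14.8).

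Counts were tested with edgeR 4.0.16 in R 4.3.3 (filterByExpr, TMM, robust quasi-likelihood F test, two-sided) with Benjamini-Hochberg adjustment over 17693 genes; the SE is the log2 fold change over the square root of F. The biological coefficient of variation was 0.105. The deposited FPKM values gave levels and pair ratios. The steps were checked on simulated data. Alternatives were other scalings, filters and thresholds, DESeq2 1.42.0, limma 3.58.1 (voom, and trend on log2(FPKM + 1)), leaving out each library, the replicate block, and summed NME entries. Values of every library were printed for called enzymes; all 45 were accounted for. The enzymes and gene lists were chosen with earlier results of these data known. A few genes of the accompanying lists are not reported here.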

Additional observations from a re-analysis of the deposited data

How the results depend on the processing

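Every called enzyme kept its direction under every alternative that tested it. The number of enzymes that rose (14) became 9 with no robust step, 9 in limma-trend fits of FPKM with a pseudocount of 1 or 0.1 and 4 with no FPKM filter, 5 at a threshold of 0.01, 1 against a fold of 1.1, and 7 to 13 with 1 library left out. The number that fell (6) became 2 with no FPKM filter, 3 at 0.01, 1 against a fold of 1.1, and 3 to 5 with 1 library left out. Over all genes, those higher (1614) became 863 at 0.01, 501 against a fold of 1.1, 635 with no FPKM filter and 1075 to 1453 with 1 library left out; those lower (1374) became 693, 473, 734 and 871 to 1225. The threshold of 0.01 and the null fold of 1.1 are stricter by definition. The cause of the other differences was not tested. With upper-quartile factors or library totals alone 10 rose and 6 fell, and PFAS (upper-quartile adjusted p = 0.0519), CTPS1 (0.0628), RRM2 (0.107) and DCTPP1 (0.0533) were lost.

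The median log2 fold change of members of the enzyme list (0.074) was 0.0583 with upper-quartile factors, 0.0568 with library totals, 0.0564 in FPKM with or without a filter, 0.0574 at a pseudocount of 0.1, and 0.0561 to 0.0796 with 1 library left out. Uncalled values that changed sign with the library left out ranged from -0.0361 to 0.0135 (GART), -0.251 to 0.00681 (ADSS1), -0.0254 to 0.0796 (CAD), -0.105 to 0.0161 (NME1), -0.0439 to 0.00639 (APRT), -0.00515 to 0.0449 (TK1), -0.279 to 0.0105 (RBKS), and -0.0898 to 0.00892 (log2 of the pair ratio IMPDH1/IMPDH2). Same-numbered samples did not deviate together (correlations -0.0675, 0.0114 and -0.0242). These values show no large shared effect but cannot show whether the samples were prepared together. With the replicate block 13 enzymes rose and 6 fell, and RRM2 was lost (edgeR adjusted p = 0.0668). Depth limits ADSS1 and RBKS, with as few as 139 counts in a library.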
